A study of Mus musculus with 2 samples.

Results

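Mir191 and Mir425 are microRNA genes that lie next to each other on mouse chromosome 9, and they are 2 of the 2202 microRNA genes counted in small RNA of the mouse heart. Their identifiers in the count files are ENSMUSG00000105497.1 and ENSMUSG00000065579.1. They were chosen by their place in a single annotated host transcript, with their read counts, strand columns and ratio already known, so these values are given as a description. Both libraries came from whole heart of male B6CASTF1/J mice, an F1 hybrid of C57BL/6J and CAST/EiJ, at 2 months of age, and no treatment is given. They form 1 group of 2 biological replicates. The sample descriptions number the animals differently while the labels give both the same donor identifier, so separate animals rest on those descriptions. The comparisons below set the hairpins against each other within a library, and the 2 libraries against each other.

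A microRNA gene is transcribed as part of a longer primary transcript, from which nuclear and cytoplasmic enzymes cut a hairpin and then a short duplex. A strand of that duplex, the mature microRNA, guides Argonaute proteins to messenger RNAs, mainly by pairing of its seed, bases 2 to 8. Hairpins that share a primary transcript can still differ in mature level, because each is cut out and its products decay on their own. In humans the miR-191 and miR-425 hairpins lie in an intron of DALRD3. miR-191 is abundant in many tissues and in blood cells and is often used as a reference in PCR assays of microRNAs. miR-425 is known in human cells as a repressor of NPPA, the gene of atrial natriuretic peptide, a heart hormone that lowers blood pressure.

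The mature sequences of both arms of each hairpin are shown because the seed sets which messenger RNAs can pair, and because a read is counted for a gene only where its sequence has a single place in the genome. They are RNA from RefSeq (build GRCm38.p6), 5′ to 3′, with the seed in capitals.
mmu-miR-191-5p: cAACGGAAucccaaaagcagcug
mmu-miR-191-3p: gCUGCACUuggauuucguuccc
mmu-miR-425-5p: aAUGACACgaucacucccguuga
mmu-miR-425-3p: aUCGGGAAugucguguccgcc
mmu-miR-489-3p: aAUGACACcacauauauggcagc
The 4 seeds of Mir191 and Mir425 all differ, so the cluster holds no seed family of its own. Among 1679 mature mouse microRNA names in this table, no other carried the seed of either miR-191 arm or of miR-425-3p. The seed of miR-425-5p was also that of miR-489-3p, and its gene Mir489 had 0 counts in replicate 2 and 0 in replicate 1, which allows up to 0.787 and 0.822 CPM. CPM is counts scaled to a library sum of 1000000 over reads counted on the strand of a microRNA gene.

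The hairpins are shown whole, with the mature arms in capitals and the rest in lower case, because a deposited count covers the whole hairpin and adds both arms.
Mir191: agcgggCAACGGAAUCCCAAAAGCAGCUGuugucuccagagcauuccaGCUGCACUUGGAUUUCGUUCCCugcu
Mir425: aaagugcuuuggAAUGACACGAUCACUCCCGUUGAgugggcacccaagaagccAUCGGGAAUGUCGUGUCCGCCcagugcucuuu
The hairpins were 74 bases long in Mir191 and 85 bases in Mir425, and each had a GC content of 54.1%. The predicted fold of the Mir191 hairpin had a minimum free energy of -35.0 kcal/mol and that of Mir425 had -31.7 kcal/mol, with 28 base pairs in each. In these folds 19 of the 23 bases of miR-191-5p were paired, against 14 of the 23 bases of miR-425-5p. Of the other arms, 19 of the 22 bases of miR-191-3p were paired and 17 of the 21 bases of miR-425-3p. The longest stretch that a member shared with a microRNA gene elsewhere, on either strand, was 12 bases for Mir191 and 13 bases for Mir425. Every mature arm is longer than that, so no arm lies whole and without mismatch in another annotated hairpin. The search took exact stretches only. Whether reads were also placed at another microRNA gene with mismatches was not tested, since the settings of the aligner are not given. The rest of the genome was not searched.

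On mm10 the Mir191 hairpin lies at chr9:108568319-108568392 and Mir425 at chr9:108568777-108568861, both on the plus strand and 384 bases apart. In GENCODE M21 both are within the long noncoding RNA gene 4833445I07Rik at chr9:108567533-108569174, whose transcript 4833445I07Rik-201 is a single exon that holds both hairpins. In its spliced transcript, 4833445I07Rik-202, Mir191 lies in the intron and Mir425 begins 2 bases beyond the annotated end. The protein-coding gene Dalrd3, whose human counterpart hosts the cluster, starts 1024 bases beyond Mir425 in this mouse annotation. On the minus strand, a predicted microRNA gene named Gm24083 (ENSMUSG00000092915.1, 120 bases) covers the whole of Mir191 and reaches 24 bases beyond it at the lower coordinate and 22 at the higher. No microRNA gene overlaps Mir425 on the opposite strand.

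**Figure D1:**
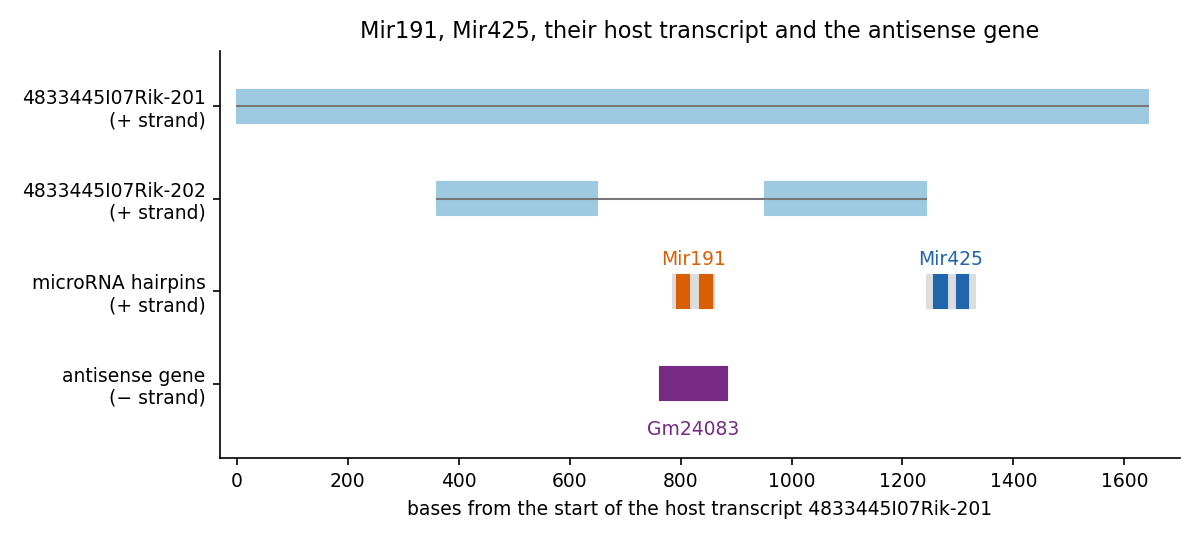
Map of the locus with bases from the start of the host transcript on the x axis; light blue boxes are exons of the host transcripts, grey boxes hairpins, coloured boxes within them the mature arms, and the purple box the gene on the minus strand. Gm24083 covers Mir191 and leaves Mir425 free, and the hairpins stand 384 bases apart.

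The libraries held 10483233 reads in replicate 2 and 10362589 in replicate 1, of which 3810675 and 3650782 were counted on the strand of a microRNA gene. Reads mapped to several places, which enter no gene, made up 46.4% in replicate 2 and 48.0% in replicate 1. As a check of the tissue label, the heart muscle gene Mir208a, which lies within Myh6, a gene of cardiac myosin, held 4265 CPM in replicate 2 and 1329 CPM in replicate 1, and Mir499 held 2507 CPM and 2601 CPM. The genes of miR-1 and miR-133a had at most 68.8 CPM in a library, and because they have copies elsewhere in the genome, reads that fit several copies entered none of them. Intervals of shares below are exact Clopper-Pearson intervals at 95%. They cover counting error only, because molecules were not told apart from their PCR copies.

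Mir191 was among the most abundant microRNA genes of the heart libraries, and Mir425 was counted far less often. Mir191 had 36451 counts in replicate 2 and 49127 counts in replicate 1, which was 9565 and 13457 CPM. Its mean was 11511 CPM ± 2751 (SD, n = 2), or 1.15% of all microRNA gene counts. Mir191 ranked 18 of 2202 genes in replicate 2 and 15 in replicate 1. Its share of the counts was 0.957% in replicate 2 (interval 0.947 to 0.966%) and 1.35% in replicate 1 (1.33 to 1.36%). The share of Mir191 was lower in replicate 2. These intervals leave out the spread between replicates, so they are no test of that difference.

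Mir425 had 2378 counts in replicate 2 and 1893 in replicate 1, which was 624 and 519 CPM. Its mean was 571 CPM ± 74.6 (SD, n = 2), and it ranked 76 in replicate 2 and 85 in replicate 1. Its share of the counts was 0.0624% in replicate 2 (interval 0.0599 to 0.0650%) and 0.0519% in replicate 1 (0.0495 to 0.0542%). The share of Mir425 was higher in replicate 2, and here too the intervals are no test of the difference. The median gene among the 337 that reached 2 CPM in each library had a mean of 54.1 CPM. The mean of Mir191 was 213 times that level and that of Mir425 was 10.6 times that level. In whole tissue, a lower count from fewer cells of a type cannot be told apart from less of the microRNA in each cell.

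The order of all 2202 genes was taken by the same counts, without reads mapped to several places. In it, 13 genes were above Mir191 in both libraries with no overlap of their ranges. For 6 genes the range overlapped that of Mir191. The genes next to Mir191 by mean level were Mir149 at 19956 CPM ± 13491 and Mir29a at 12872 CPM ± 2762 above it, and Mir125a at 11159 CPM ± 5738 and Mir30a at 11105 CPM ± 3252 below it (SD, n = 2 each). The range of each of these 4 neighbours overlapped that of Mir191, so their order is not resolved by these libraries. miR-29a, the product of Mir29a, is known to repress collagen genes.

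For Mir425, 73 genes were above it without overlap and 12 genes overlapped its range. Its neighbours in level were Mir181b-2 at 710 CPM ± 366 and Mir467d at 688 CPM ± 60.8 above it, and Mir30c-1 at 552 CPM ± 25.5 and Mir25 at 513 CPM ± 56.9 below it (SD, n = 2 each). Of these 4, Mir467d alone did not overlap Mir425, with 731 and 645 CPM in replicates 2 and 1. Mir181b-2 and Mir30c-1 have copies with the same mature sequence at other places, so their counts and places are uncertain.

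The hairpins of this cluster differed by more than an order of magnitude within each library. Mir191 had 15.3 times the counts of Mir425 in replicate 2 and 26.0 times in replicate 1. On the log2 scale, with 0.5 CPM added to each level, the ratio of Mir191 to Mir425 was 3.94 in replicate 2 and 4.70 in replicate 1, a mean of 4.32 ± 0.54 (SD, n = 2). Mir191 was the higher gene of the pair in both libraries. A small RNA read stands for a mature microRNA, so counts were not divided by length, and per base of hairpin the ratio was 17.6 in replicate 2 and 29.8 in replicate 1. The efficiency of library preparation can differ between mature sequences and was not corrected for, so the ratio is that of counts and may differ from that of the molecules.

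The share of Mir425 in the counts of the pair was 6.12% in replicate 2 (interval 5.89 to 6.37%) and 3.71% in replicate 1 (3.55 to 3.88%). This share was known when the pair was chosen, so it was not tested. The log2 ratio changed by -0.76 between replicate 2 and replicate 1, with a counting interval of -0.85 to -0.67. That interval is a normal approximation at 95% from the 4 counts. It leaves out the spread between replicates, so it is no test of the change. The pair together held 10190 CPM in replicate 2 and 13975 CPM in replicate 1, a mean of 12082 CPM ± 2677 (SD, n = 2), and 93.9% and 96.3% of it was Mir191.

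Mir191, which Gm24083 overlaps, had no counts in the column that ignores strand. There Mir191 was at 0 in each library, although its own strand held 36451 and 49127 reads. A read that lies in both genes is entered in the row of reads in more than 1 gene, and the counts of Mir191 equal 4.31% of that row in replicate 2 and 5.71% in replicate 1. Counted on the opposite strand, Gm24083 received 36451 reads in replicate 2 and 49127 reads in replicate 1, the same numbers as Mir191 on its own strand. On its own strand, Gm24083 had 0 counts in both libraries, and Mir191 had 0 counts on the opposite strand. These zeros allow up to 3 reads, or 0.00823% of the reads of Mir191 in replicate 2 and 0.00611% in replicate 1. The counts that Gm24083 receives in the column of the opposite strand are therefore as many as those of Mir191, and no read from the strand of Gm24083 was counted.

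The sequence of Gm24083 is given because it holds the reverse complement of the whole Mir191 hairpin, in capitals. It is DNA from GENCODE M21 at chr9:108568295-108568414, minus strand, 5′ to 3′.
Gm24083: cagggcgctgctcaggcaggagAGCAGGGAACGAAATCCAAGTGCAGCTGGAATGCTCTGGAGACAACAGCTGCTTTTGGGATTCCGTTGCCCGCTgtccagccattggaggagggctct
The gene reaches past both ends of the hairpin, so any read that lies in Mir191 also lies in Gm24083.

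Mir425, with no gene on the opposite strand, had the same counts with and without strand, 2378 in replicate 2 and 1893 in replicate 1. It had 0 counts on the opposite strand in both libraries. Its level without strand was 802 CPM in replicate 2 and 678 CPM in replicate 1, above the values with strand, because the sum of gene counts was 22.2% and 23.6% smaller there. Without strand, the order of the pair turned round, with Mir191 at 0 and Mir425 at a mean of 740 CPM.

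Mir191 shared this loss with other genes. Of the 2202 genes, 64 overlap a microRNA gene on the opposite strand, and 13 of these had a mean of at least 100 CPM. Of the 13, 12 had 0 counts without strand in both libraries. The other was Mir126a, named here after its values were seen, with 29 and 15 counts without strand against 267615 and 190616 with strand in replicates 2 and 1. Mir191 was the third by level among the 13, after Mir378a and Mir126a.

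**Figure D2:**
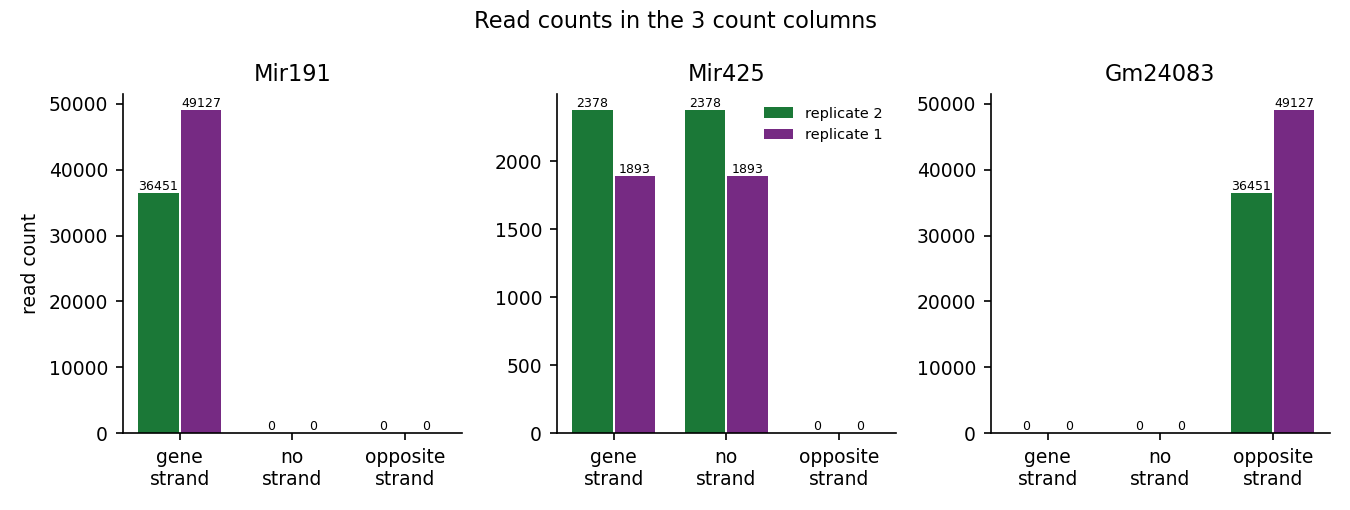
Read counts of Mir191, Mir425 and the antisense gene Gm24083 on the strand of the gene, without regard to strand and on the opposite strand, with 1 bar for each library and a separate linear y axis from 0 for each gene. Mir191 has 36451 and 49127 counts on its strand and 0 without strand, Gm24083 has these same numbers on the opposite strand, and Mir425 has 2378 and 1893 counts in both of the first columns.

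The levels of the members in the 2 libraries were then set against the spread over all 320 genes past the low-count filter. Mir191 was at 9565 CPM in replicate 2 against 13457 CPM in replicate 1, a scaled log2 ratio of -0.51. Mir425 was at 624 CPM in replicate 2 against 519 CPM in replicate 1, a scaled log2 ratio of 0.25. Their counts were known when they were chosen, so no p is given for them. Over all genes, an exact binomial test of the counts called 64.4% of the 320 as different between the libraries beyond counting noise, with 33.8% lower and 30.6% higher in replicate 2. Without the low-count filter it called 213 of 722 genes, or 29.5%, with 118 higher and 95 lower in replicate 2. This test compares 2 libraries and no conditions, and where the spread between them comes from was not tested.

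Against the spread between these replicates the differences were of ordinary size. The biological coefficient of variation (the relative spread between replicates beyond counting noise) was 0.370 over the 320 genes. The median absolute log2 ratio between the libraries was 0.44. The absolute log2 ratio of Mir191 was larger than that of 175 of the 320 genes, or 54.7%, and that of Mir425 was larger than that of 98 genes. The sign of both members was the same with each of the scalings and filters tried.

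**Figure D3:**
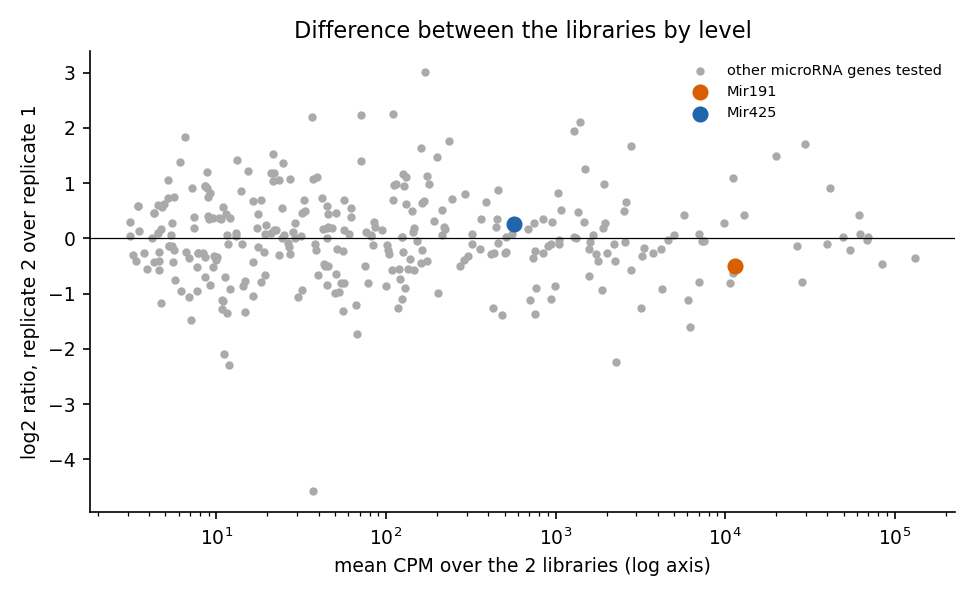
Log2 ratio of replicate 2 over replicate 1 against the mean CPM over the libraries, on a log axis, for the 320 genes tested, 1 point a gene. Mir191 lies at -0.51 and Mir425 at 0.25, both within the cloud of other genes.

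Summed levels of markers of the cell types of the heart also differed between the libraries. The 5 leukocyte genes, Mir142, Mir150, Mir155, Mir223 and Mir146, had a sum of 8667 CPM in replicate 2 and 10633 CPM in replicate 1. All 5 were called lower in replicate 2, against 33.8% of all genes tested. In the same order their log2 ratios were -1.36, -0.26, -0.18, -0.50 and -0.18. At high counts the test calls small differences too. The 7 heart muscle genes had a sum of 6942 CPM in replicate 2 and 4032 CPM in replicate 1. In it Mir208a alone held 4265 and 1329 CPM. Of the 7, 2 were called higher in replicate 2, 2 were called lower, 1 was not called and 2 were not past the filter. Over all genes 30.6% were called higher and 33.8% lower. The log2 ratios were 1.67 for Mir208a, 2.23 for Mir208b, -0.07 for Mir499, -0.82 for Mir1a-2 and 0.07 for Mir133a-1. The sum therefore does not speak for the list as a whole. Mir126a of endothelium was at 70228 and 52212 CPM in replicates 2 and 1. The smooth muscle genes summed to 53284 and 54611 CPM in replicates 2 and 1, with Mir143 called higher in replicate 2 at a log2 ratio of 0.02 and Mir145a called lower at -0.92. The 3 erythroid genes summed to 2960 and 3222 CPM in replicates 2 and 1, with Mir144 called higher in replicate 2 at 0.20, Mir486 higher at 0.50 and Mir451a lower at -0.68. The liver gene Mir122 was at 97.9 and 142 CPM, and 7 neuronal genes summed to 37.0 and 78.1 CPM, with 4 of them at 0 counts and with Mir9-3 at 1 count in replicate 2 and 101 counts in replicate 1. Mir137, the 1 neuronal gene past the filter, had a log2 ratio of -0.47. The part of these cell types in the levels of Mir191 and Mir425 was not tested.

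Likeness to each member was taken as the distance between log2 ratios of replicate 2 to replicate 1 among the 128 genes at 100 CPM or more in both libraries, which is a single difference per gene over 2 libraries. The genes nearest to Mir191 were Mir223 at -0.50, known from myeloid cells, Mir671 at -0.55, Mirlet7i at -0.46, Mir203 at -0.57, known from skin, and Mir92-2 at -0.44. Their levels spanned a wide range, from 110 CPM for Mir671 to 70926 CPM for Mirlet7i in replicate 2. Mir92-2 has a copy with the same mature sequence elsewhere, so its count is uncertain. The genes nearest to Mir425 were Mir28a and Mir29c at 0.27, Mir30e at 0.28, and Mir423 and Mir455 at 0.30. None of these 10 genes lies on chromosome 9, but how many of the 128 do was not counted, so this shows nothing about the locus. Neither member was among the 5 nearest to the other, which follows from their log2 ratios of -0.51 and 0.25.

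The pair was then set beside other neighbouring hairpins. Next neighbours on a strand with up to 10 kb between them, both at 100 CPM or more in each library, formed 24 pairs. In each, the level of the upstream hairpin over that of the downstream one was taken within each library. By the size of the mean log2 ratio, Mir191 and Mir425 ranked 6 of 24, with 4.32 against a median of 3.24 over the pairs. By the change of that ratio between the libraries they ranked 16 of 24, with -0.76 against a median absolute change of 0.83.

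The widest changes were those of Mir15a over Mir16-1 at 2.64, Mir106b over Mir93 at 1.93 and Mir497 over Mir195a at 1.47. The smallest changes were those of Mir100 over Mirlet7a-2 at -0.08, Mir99a over Mirlet7c-1 at 0.12 and Mirlet7a-1 over Mirlet7f-1 at 0.13. Mir16-1 among the widest, and the let-7a, let-7c and let-7f genes in each of the smallest, have copies with the same mature sequence at other places, so their counts are uncertain. In 14 of the 24 pairs, Mir191 and Mir425 among them, the hairpins had log2 ratios between the libraries of opposite sign, and the count was 15 without the low-count filter. Signs were counted whatever their size, and unrelated genes were not counted in the same way.

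**Figure D4:**
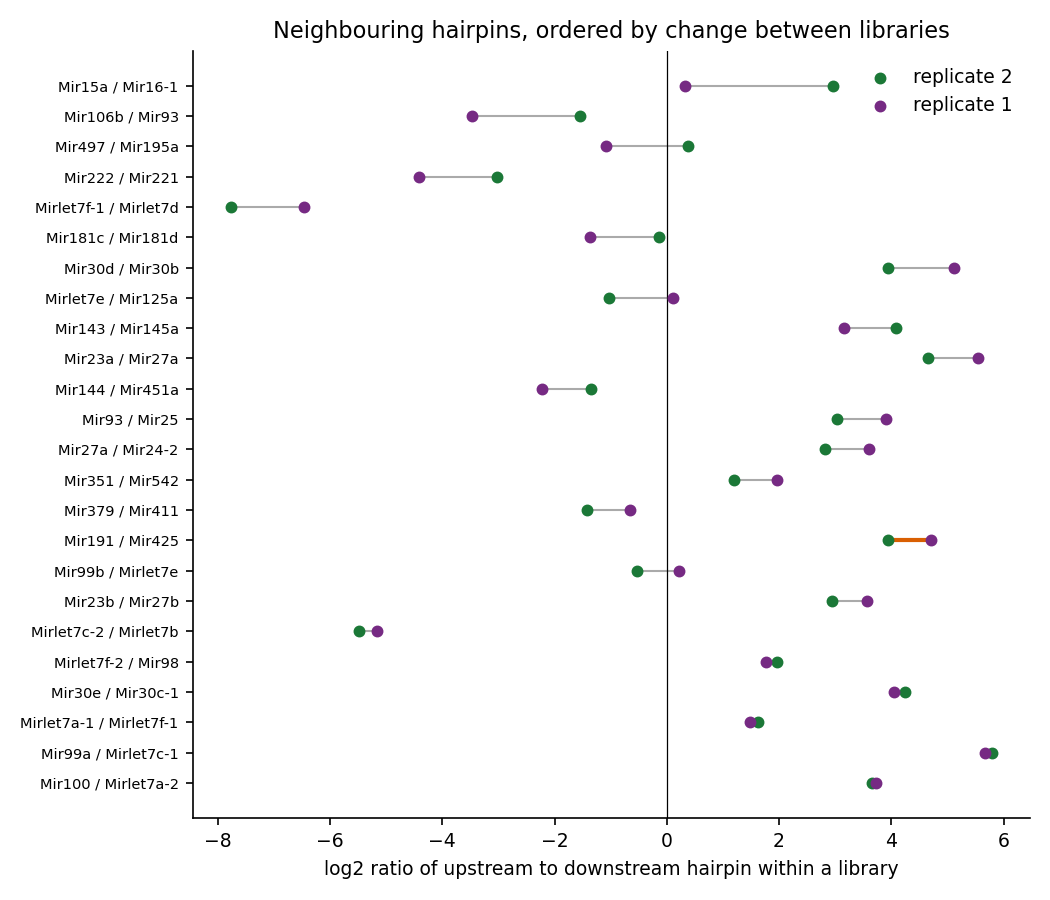
Log2 ratio of the upstream to the downstream hairpin within each library (x axis) for the 24 pairs of neighbouring hairpins, with 1 point for each library joined by a line and pairs ordered by the change, largest at the top. Mir191 over Mir425, with the thick line, is at 3.94 in replicate 2 and 4.70 in replicate 1.

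Since miR-191 and miR-425 are often used as references in PCR assays, they were placed in a list of 26 genes of microRNAs used in this way. Of these, 25 passed the low-count filter, 9 were called higher in replicate 2, 13 were called lower and 3 were not called. The exact binomial test thus called 88.0% of the 25, against 64.4% of all genes tested. The share called depends on the level of the genes, since at high counts small differences are called too. Over all genes it was 29.5% without the low-count filter and 73.9% with a minimum level of 10 CPM per library. The list was not compared with genes of like level, so these shares do not show that its genes vary more. The median absolute log2 ratio was 0.41 over the 25 genes and 0.44 over all 320 genes. By the size of the log2 ratio between the libraries, from the smallest, Mir425 stood at place 7 and Mir191 at place 15 of the 25. Of the genes placed after Mir191, Mir103-2, Mir26a-2, Mir16-2, Mir16-1, Mir24-2 and Mir26a-1 have copies with the same mature sequence at other places. So does Mir24-1 before it, so these counts are uncertain and the place of Mir191 depends on them. By mean level Mir191 was the fourth and Mir425 at place 14.

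The other genes of highest mean level in the list were Mirlet7i at 83854 CPM ± 18283, Mirlet7g at 69037 CPM ± 539 and Mirlet7d at 41777 CPM ± 18205 (SD, n = 2 each). The smallest log2 ratios were those of Mir532, at 0.02, and Mirlet7g, at -0.03. The largest were those of Mir26a-1, at -4.58, and Mir24-2, at 1.76, and both have a copy with the same mature sequence elsewhere, so their counts are uncertain. The relative spread between the libraries (SD over mean, n = 2) was 23.9% for Mir191 and 13.1% for Mir425, against 0.78% for Mirlet7g.

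**Figure D5:**
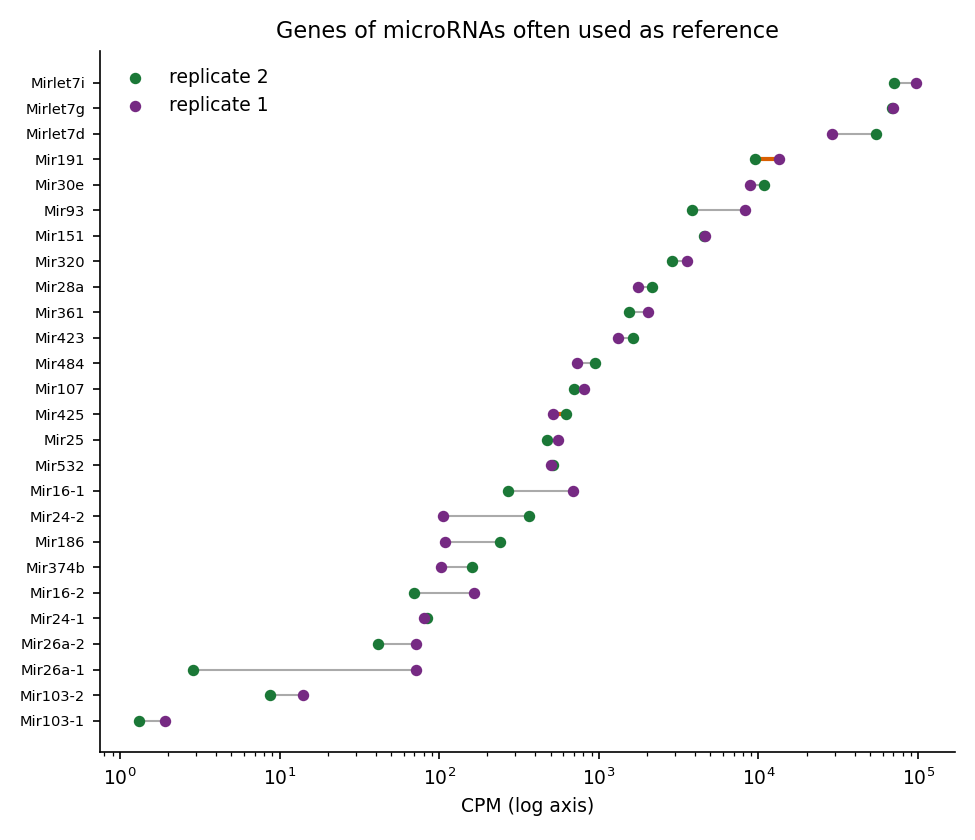
CPM on a log axis in each library for the 26 genes of microRNAs often used as reference, ordered by mean level, with the points of the libraries joined by a line (thick for Mir191 and Mir425). Mir191 is at 9565 and 13457 CPM and Mir425 at 624 and 519 CPM in replicates 2 and 1, and the line of Mir26a-1 is the longest.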

How the data were processed

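The authors deposited raw read counts for microRNA genes in a separate table for each library. Its 3 count columns hold reads of either strand, reads of the gene's strand, and reads of the other strand. Per the text deposited with each file, the assembly was mm10 and the annotation GENCODE M21. For the aligner and the counter, name and settings are not given in the sources used here. Sums and tests left out the 4 rows without a gene name, and all 2202 identifiers matched GENCODE M21. The column of the gene's strand was the main measurement. CPM was computed here over the sum of its gene rows, with 3 counts as the floor (0.787 CPM in replicate 2 and 0.822 CPM in replicate 1).

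The members, lists and tests were chosen with earlier results of these data known. Genes named besides the members were the antisense gene, the 2 genes on either side by mean CPM, the 5 nearest by the log2 ratio between libraries, the 3 neighbouring pairs of widest and of smallest change, and genes of the reference list by level and ratio. As a background, the counts of the libraries were compared for each gene by a two-sided exact binomial test against the ratio of TMM library sizes. P-values were adjusted by Benjamini-Hochberg (threshold 0.05) over the genes past filterByExpr in edgeR 4.0.16 (R 4.3.3). The test was checked only on simulated counts with counting noise. These lacked the spread between replicates seen here, so the check does not cover that spread. The biological coefficient of variation was the common dispersion of an edgeR fit with an intercept only. With 1 group there was no quasi-likelihood test. Alternatives included DESeq2 1.42.0 size factors. Folds came from RNAfold 2.7.2. Nothing states whether the replicates differ in RNA extraction or library preparation.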

Additional observations from a re-analysis of the deposited data

How the results depend on the processing

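The count column was the choice that changed most. Without regard to strand the mean level of Mir191 was 0 CPM and that of Mir425 was 740 CPM, and the log2 ratio of Mir191 to Mir425 turned to -10.53, a value set by the pseudocount since Mir191 had no counts there. Gm24083 covers the whole of Mir191 on the opposite strand, and the path of single reads into the row of reads in more than 1 gene was not traced. No log2 ratio between the libraries could be had for Mir191 in that column, and its pair with Mir425 drops out of the neighbouring hairpins there and at a minimum of 1000 CPM. With the most abundant gene left out of the denominator, Mir425 was at 658 CPM. Of 37 alternatives over 8 results, the other 33 were counted as unchanged. For the levels and the ratio of Mir191 to Mir425, this meant a move smaller than the SD. With 2 libraries, leaving either out always meets that, so those alternatives decide nothing. For the log2 ratios between the libraries it meant the same direction and call. At the counts of the members the call could hardly change, so it adds nothing to the direction. The number of genes called, the coefficient of variation and the median change of neighbouring pairs were compared by size alone. That median lay between 0.74 and 0.87.

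With each replicate left out in turn, the level of Mir191 ranged from 9565 to 13457 CPM, that of Mir425 from 519 to 624 CPM, and their log2 ratio from 3.94 to 4.70. Across scalings and filters the log2 ratio between the libraries ranged from -0.53 to -0.43 for Mir191, and from 0.23 to 0.33 for Mir425, the column without strand included. The number of genes that differed between the libraries ranged from 176 of 238 to 213 of 722. No paired analysis was possible because the libraries form 1 group. Depth limits what the zeros of Gm24083 and Mir489 show, which is at most 3 counts in a library.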
